A study of Mus musculus with 24 samples.

Results

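Mouse primary cortical astrocytes with a floxed insulin receptor gene were compared after Cre (IRKO) and without it (IRflox), with the genotype difference averaged over 3 treatments. All 24 libraries of the series were members: 12 IRKO and 12 IRflox, 4 of each under vehicle (Ctrl), insulin (Ins) and IGF-1 (IGF1). IRKO cultures had received an adenovirus encoding Cre fused to green fluorescent protein, and IRflox cultures, of the same cells from floxed newborn pups, an adenovirus encoding green fluorescent protein alone. Cells were kept for a further 5 days, starved of serum overnight and treated for 6 h, with each ligand at 100 nM. Other cell types had been depleted by shaking a day after plating. Both genotypes thus carried the floxed allele and a virus, and loss of the receptor gene and presence of Cre cannot be told apart. Strain, sex and age beyond newborn are not stated in the labels, and Cre was delivered to all infected cells in the dish rather than from a cell-type promoter. Since no label states that replicates came from separate cultures, p-values here reflect variation among libraries that may be purely technical.

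The insulin receptor is a tyrosine kinase at the cell surface that binds insulin and, less tightly, the IGFs. It forms hybrids with the closely related IGF-1 receptor, and both signal through the insulin receptor substrates to PI3-kinase and AKT, which restrain FOXO transcription factors and promote lipid synthesis and growth. Astrocytes express both receptors, and insulin signalling in them is known to influence glucose handling and cholesterol supply. A difference that is present with and without added ligand is called constitutive here.

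Libraries held 16114140 to 19008077 gene counts in IRKO and 15429688 to 19010986 in IRflox cultures, and 15599 of 32719 genes passed the expression filter and were tested. Reads outside genes made up 16.5 to 22.5% (median 19.0%) of IRKO and 14.5 to 23.2% (median 16.7%) of IRflox libraries. The biological coefficient of variation between libraries of a group was 4.9%. Over all tested genes the second principal component, with 8.9% of the variance, lay between -13.3 and -6.26 in every IRKO library and between 7.47 and 15.4 in every IRflox library. Astrocyte markers were abundant, 19 tested ones summing to 11530 to 13740 CPM (counts scaled to library size and composition) in IRKO and 11070 to 13540 CPM in IRflox libraries, while the connexin gene Gjb6, a marker of mature astrocytes, was near 0 with 23 counts over all libraries.

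Insr, the targeted gene (chromosome 8, 3122061 to 3279617, minus strand; mm10, GENCODE M21), was lower in IRKO astrocytes in all treatments. Its level was 26.6 CPM at the lowest, 30.5 at the median and 43.7 at the highest in the 12 IRKO libraries, against 46.7, 50.6 and 66.9 CPM in the 12 IRflox libraries. No IRKO library reached the lowest IRflox library, whatever its treatment. The average log2 difference, IRKO minus IRflox with equal weight per treatment, was -0.69 (SE 0.033), or 0.621 times the IRflox level (edgeR quasi-likelihood test, Benjamini-Hochberg adjusted p = 2.03e-19). Within treatments the log2 difference was -0.61 in Ctrl, -0.78 in Ins and -0.68 in IGF1, and it did not pass the test of dependence on treatment (unadjusted p = 0.115, edgeR adjusted p = 0.988). Counts cover the entire gene, including exons that Cre does not remove, so the remainder does not measure intact receptor mRNA. Of 23 tested genes within 1 Mb of Insr, 3 were higher and 3 lower, against 12.8% and 13.0% of all tested genes, and Stxbp2 was the 1 called in every treatment (log2 0.25).

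Averaged over treatments, 4034 of 15599 genes (25.9%) differed between genotypes at an adjusted p under 0.05, 2003 higher (12.8%) and 2031 lower (13.0%) in IRKO. The differences were small, with a median of 1.14-fold among the higher and 1.1-fold among the lower genes. In all, 77 of the higher and 133 of the lower genes passed 1.5-fold. Within treatments 586 genes were higher (3.76%) and 640 lower (4.10%) in Ctrl, 771 higher (4.94%) and 863 lower (5.53%) in Ins, and 564 higher (3.62%) and 491 lower (3.15%) in IGF1. A gene was taken to hold in every treatment when it was called in the average and in each treatment with 1 sign. That left 216 genes higher (1.38%) and 243 lower (1.56%), 459 in all (2.94%), with median differences of 1.19-fold and 1.22-fold. In 153 of the 216 and 179 of the 243, all 4 IRKO libraries lay on 1 side of all 4 IRflox libraries in each treatment, a pattern that 1.33% of all tested genes showed upward and 1.63% downward. Calls and pattern were read from the same libraries, so a high share follows largely from the calls and adds no separate support. Of the 459 genes, 87 higher and 117 lower were called in every treatment in each of 24 fits that left out 1 library.

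The 3 within-treatment comparisons share no library, so their directions could be set side by side. They do share the scaling and the estimate of the spread, and no label states that their cultures were separate, so their agreement is not independent replication. Genes called in 1 treatment had the same sign in another in 95.5% (called in Ins, read in Ctrl) to 97.2% (called in IGF1, read in Ins) of cases, against 65.1 to 68.6% among genes not called. Called in either direction were 1226 genes in Ctrl (7.86%), 1634 in Ins (10.5%) and 1055 in IGF1 (6.76%). Of those called in Ctrl, 705 were also called with the same sign in Ins and 548 in IGF1, and 1 was called with the opposite sign in each. Genotype differences correlated across the 15599 genes with Pearson's r of 0.40 between Ctrl and Ins, 0.38 between Ctrl and IGF1 and 0.46 between Ins and IGF1; genes are not independent replicates, and these values are descriptions. No gene passed the edgeR test that its genotype difference depends on treatment, with 774 (4.96%) at an unadjusted p under 0.05. DESeq2 also called 0 (759 at an unadjusted p under 0.05) and limma-voom called 0, whereas edgeR called 33 with no filter on low counts and 3 without IRKO Ctrl replicate 1. A count of 0 does not show that the differences are equal.

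**Figure D1:**
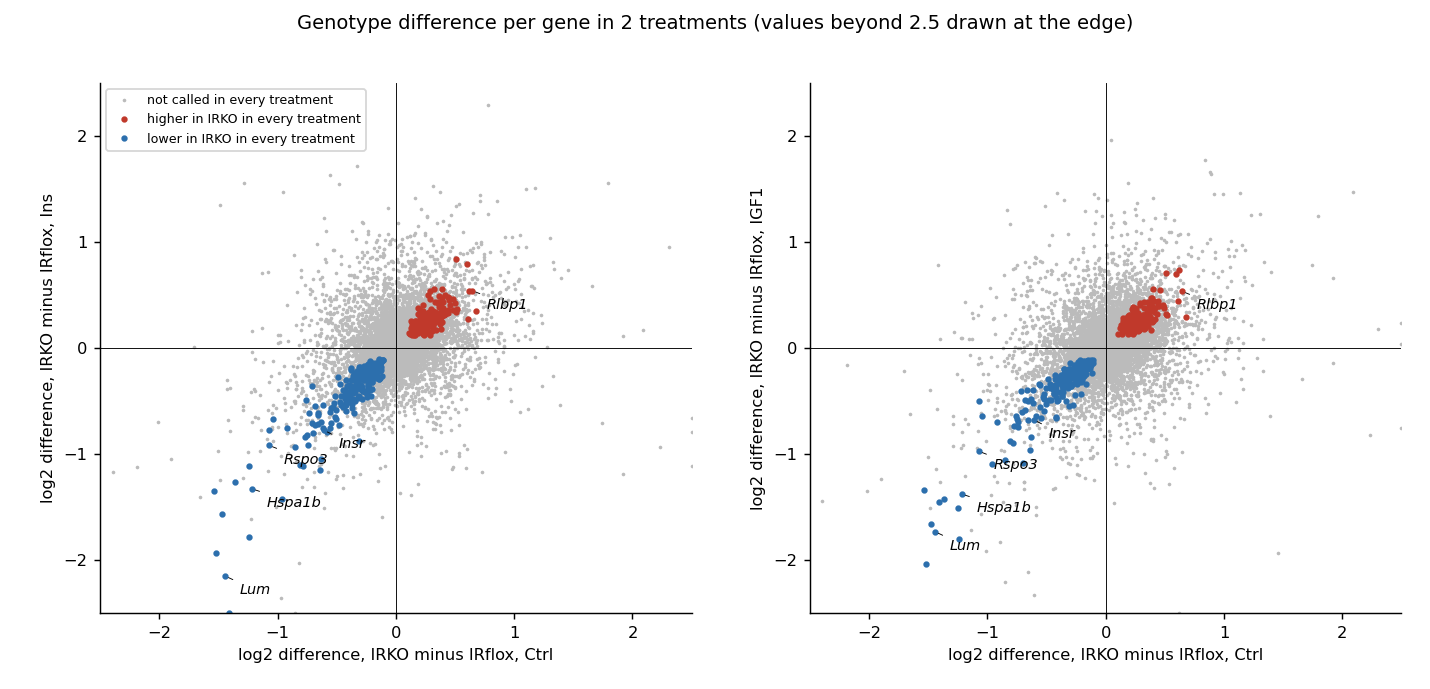
Log2 difference of each tested gene, IRKO minus IRflox, in Ctrl (horizontal) against Ins (left) and IGF1 (right). Red points are the 216 genes higher and blue points the 243 genes lower in IRKO in every treatment, grey points all others; the blue genes extend further from 0 than the red.

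The genes with the lowest p for dependence on treatment had adjusted p of 0.339 to 0.355 and are given by value. Fgl2, a fibrinogen-like secreted protein, differed by -0.35 in Ctrl, -0.61 in Ins and -0.29 in IGF1 on the log2 scale and was called in all 3. Wnt5a, a Wnt ligand, differed by 0.07, 0.17 and 0.35 and was called in Ins and IGF1. Slfn5 differed by 0.05, -0.17 and 0.28, Zfyve16 by 0.22, -0.13 and 0.11, and the lymphotoxin gene Ltb, at no more than 1.08 CPM in any library, by 1.45, 0.73 and -1.93. Called in opposite directions in 2 treatments were Stat2, an interferon signalling factor (-0.14 in Ctrl and 0.14 in IGF1, edgeR adjusted p = 0.0326 and 0.0301), and Gm23935, annotated as a miRNA gene (-0.62 in Ctrl and 0.59 in Ins, edgeR adjusted p = 0.0324 and 0.0355). Gm23935 had 1680 to 3630 CPM in IRKO and 2560 to 4630 CPM in IRflox libraries in Ctrl. In Ins it had 2190 to 4360 CPM in IRKO and 2080 to 2440 CPM in IRflox libraries. Its genotypes thus overlapped in both treatments, and what its reads measure after poly-A selection was not examined.

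The IGF-1 receptor and the insulin receptor substrates differed little between genotypes, while the IGF carrier gene Igfbp3 was lower in IRKO in every treatment. The transcription factor gene Foxo6, of low level, was lower in the average only. Igf1r, the IGF-1 receptor gene, had 89.3, 105 and 203 CPM (lowest, median, highest) in IRKO and 85, 98.8 and 193 CPM in IRflox libraries. Its average log2 difference of 0.07 (SE 0.023) passed the edgeR test (adjusted p = 0.016; 0.0513 with no filter on low counts), but no single treatment did, and the libraries overlapped in Ins and IGF1. The substrate gene Irs2 had 324, 365 and 417 CPM in IRKO and 377, 394 and 468 CPM in IRflox libraries, which overlapped across treatments but were apart within each. It was lower by -0.15 (SE 0.022, edgeR adjusted p = 1.01e-06), called in Ctrl and Ins. Irs1, of whose exon length 30.9% is shared with Gm9747, was lower by -0.10 (SE 0.022, edgeR adjusted p = 0.00055). Of 17 tested receptors, ligands and substrates, 3 were higher (17.6%) and 4 lower (23.5%), against 12.8% and 13.0% of all tested genes, and only Insr and Igfbp3 held in every treatment. Igfbp3, a carrier that binds IGFs outside the cell, averaged 620 CPM in IRKO and 854 CPM in IRflox libraries (log2 -0.47, SE 0.031). Igf1, the ligand gene, was higher by 0.33 (SE 0.042). Among 30 genes of PI3-kinase, AKT and mTOR signalling 1 was higher (3.33%), the lipid phosphatase gene Inpp5d of blood and myeloid cells (0.20, SE 0.033), and 6 were lower (20%), including Foxo6 (-0.61, SE 0.13), Foxo1 (-0.15, SE 0.033) and Sesn2 (-0.12, SE 0.027). None of the 6 was lower in every treatment. Foxo6 had 0.728 to 3.27 CPM in IRKO and 1.66 to 4.08 CPM in IRflox libraries, and its genotypes overlapped in Ctrl.

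Outputs usually tied to this pathway differed from list to list. Shares are read against 12.8% higher and 13.0% lower over all tested genes. Of 23 FOXO targets 6 were higher (26.1%) and 4 lower (17.4%), with Insr itself among the lower, Cited2 at -0.17 (SE 0.025) and Bcl2l11, a cell death gene, at 0.30 (SE 0.055). Of 44 autophagy genes 3 were higher and 3 lower (6.82% each), none in every treatment, with a median of -0.01; Mitf, a transcription factor gene, was at 0.20 (SE 0.059; -0.14 with the microglia marker level as a covariate, a fit described further on), Atg4d at 0.11 (SE 0.032, 19.3% of exon length shared with Kri1), Calcoco1 at 0.09 (SE 0.028) and the receptor gene Sqstm1 at -0.08 (SE 0.026). Cell cycle genes were called in 4 of 42 cases (2.38% higher, 7.14% lower), Ccnd2 higher (0.08), Cdkn2c (-0.19) and Cdkn2a (-0.17) lower, and Mcm7 lower (-0.12) but not without IRflox Ctrl replicate 3, IRflox Ins replicate 2 or IRKO Ctrl replicate 3 (edgeR adjusted p = 0.0501 to 0.0503). Genes of cholesterol synthesis and uptake were higher in 15 of 25 cases (60%) and lower in 0, with a median of 0.10 against 0 over all genes. The sterol reductase gene Hsd17b7 averaged 144 CPM in IRKO and 120 CPM in IRflox libraries (0.29, SE 0.031). It and the lanosterol synthase gene Lss (0.15, SE 0.024) held in every treatment, whereas the carrier gene Stard4 (0.17, SE 0.022) did not. Fatty acid and triglyceride genes were higher in 7 (33.3%) and lower in 1 (4.76%) of 21 cases, with Gpam, the first step of glycerolipid synthesis, at 0.30 (SE 0.029) in every treatment, Pnpla3 at 0.51 (SE 0.082), Lpin1 at 0.17 (SE 0.026) and the desaturase gene Scd1 at -0.08 (SE 0.019). Of 21 genes of glucose uptake and glycolysis 6 were higher (28.6%) and 4 lower (19%). The lactate carrier genes differed in sign, Slc16a1 being lower (-0.29, SE 0.023) and Slc16a3 higher (0.42, SE 0.047), and Pfkp was lower (-0.26, SE 0.024).

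The 12 largest falls named by rule, Insr among them, spanned -1.31 to -0.63, and the 12 largest rises 0.41 to 0.57 (log2, average). Among the 459 genes 10 passed 2-fold, all lower in IRKO, and 9 of these had a mean log2 CPM under 2, so that their folds rest on few counts. These included the developmental transcription factor gene Dach1 (-1.83) and the synaptotagmin gene Syt4 (-1.61), chosen after their values were seen.

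**Figure D2:**
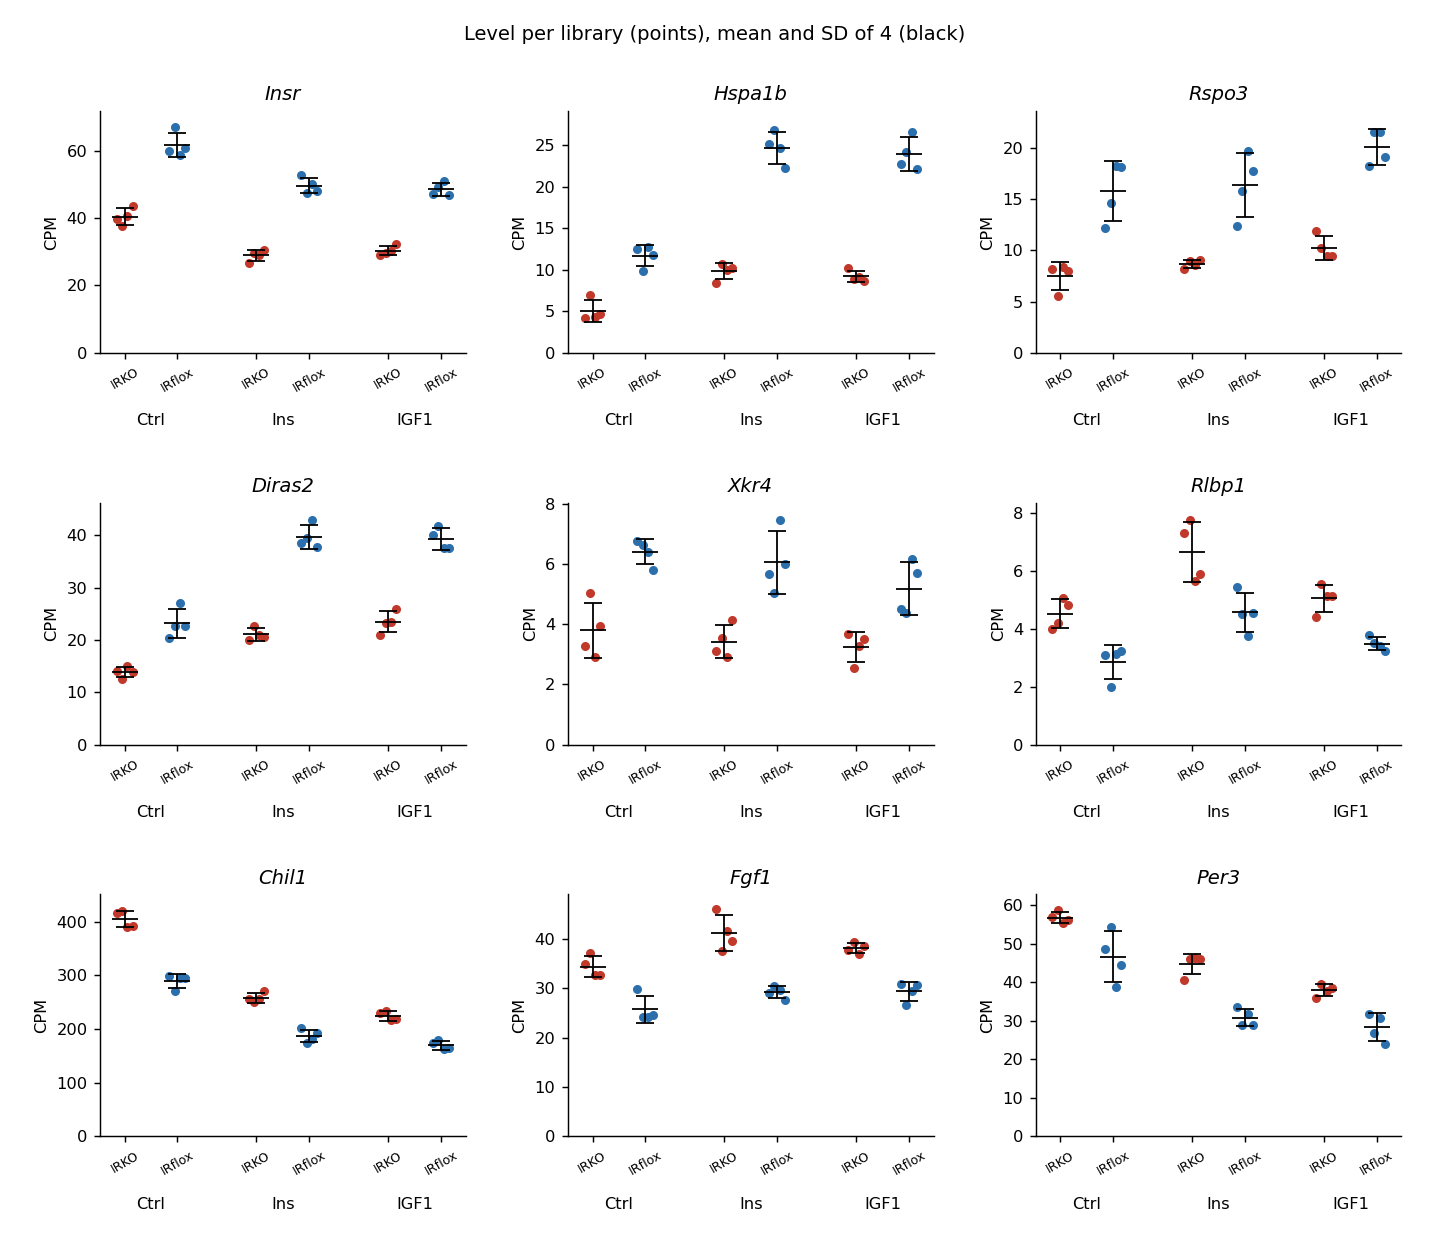
Level in CPM of 9 named genes in every library, IRKO (red) left of IRflox (blue) in Ctrl, Ins and IGF1, with mean and SD of 4 in black. In each panel and treatment all 4 IRKO libraries lie on 1 side of all 4 IRflox libraries, which the rule that named these genes required.

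Among the falls, Rspo3, a secreted amplifier of Wnt signalling, had 5.51, 8.78 and 11.9 CPM (lowest, median, highest) in IRKO libraries, against 12.2, 18.1 and 21.6 CPM in IRflox libraries. The genotypes did not overlap over all treatments. Its log2 difference was -0.99 (SE 0.072, edgeR adjusted p = 8.02e-14). Aff2, a nuclear protein gene of the AF4/FMR2 family, had 2.57, 3.35 and 4.16 CPM in IRKO and 5.36, 6.33 and 7.25 CPM in IRflox libraries, again without overlap (-0.93, SE 0.086). Diras2, a small Ras-like GTPase gene, had 12.6, 20.8 and 25.9 CPM in IRKO and 20.4, 37.6 and 42.9 CPM in IRflox libraries. Its genotypes were apart within each treatment but overlapped across treatments (-0.80, SE 0.043, edgeR adjusted p = 1.06e-17). Xkr4, of the XK-related membrane protein family, had 2.56, 3.40 and 5.04 CPM in IRKO and 4.37, 5.92 and 7.49 CPM in IRflox libraries (-0.75, SE 0.095). The receptor gene Lpar4 for lysophosphatidic acid fell by 0.68 (SE 0.062), the protease inhibitor gene Serpinb1a by 0.67 (SE 0.054), the leucine-rich repeat gene Lrrn3 by 0.64 (SE 0.049), the inhibitory G protein gene Gnai1 by 0.63 (SE 0.066) and Msl3l2 by 0.79 (SE 0.056). Over all 12 libraries of each genotype, whatever the treatment, 7 of the 12 falls were without overlap and 2 of the 12 rises. These genes were chosen for being apart within each treatment, and the share over all tested genes was not counted. The 2 counts are thus descriptions of the named genes only.

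Among the rises, Rlbp1, a retinaldehyde-binding protein gene of glia in the retina, had 4.00, 5.13 and 7.75 CPM (lowest, median, highest) in IRKO and 1.98, 3.47 and 5.45 CPM in IRflox libraries (0.57, SE 0.088, edgeR adjusted p = 2.84e-06). Chil1, a secreted chitinase-like protein known from reactive astrocytes, had 216, 256 and 420 CPM in IRKO and 162, 187 and 298 CPM in IRflox libraries. It was higher by 0.45 (SE 0.025), with 0.48 in Ctrl, 0.46 in Ins and 0.40 in IGF1 (edgeR adjusted p = 1.13e-17). Fgf1, a growth factor gene, had 32.6, 37.6 and 46.0 CPM in IRKO and 24.2, 29.2 and 30.9 CPM in IRflox libraries, without overlap over all treatments (0.43, SE 0.039). Per3, a clock gene, had 35.9, 46.0 and 58.7 CPM in IRKO and 23.9, 31.8 and 54.4 CPM in IRflox libraries (0.42, SE 0.044), and its genotypes were apart within treatments only. The other rises were Vat1l (0.46), the TBK1 adaptor gene Tbkbp1 (0.44), Ccdc88b (0.43), the secreted phospholipase gene Pla2g5 (0.43), the TNF receptor family gene Relt (0.43) and Npl of sialic acid breakdown (0.41). Gm13889 (0.47), with 20.8% of its exon length shared with Gm27027, and the GTPase-activating protein gene Arhgap4 (0.41), with 36.1% shared with Avpr2, are uncertain because the reads carry no strand.

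Heat shock genes were called lower in IRKO far more often than higher. They were grouped by symbol after their values were seen, so their count is a description. Heat shock proteins and their DnaJ partners are chaperones that fold nascent and damaged proteins, and the inducible members are switched on by heat shock factor 1, which binds repeats of GAA and TTC in promoters. Of 67 tested genes 1 was higher (1.49%) and 21 were lower (31.3%), 13 of them in every treatment, against 12.8% and 13.0% over all genes. The inducible Hsp70 gene Hspa1b had 4.16, 8.74 and 10.7 CPM (lowest, median, highest) in IRKO libraries and 9.85, 22.5 and 26.8 CPM in IRflox libraries. Its genotypes were apart in each treatment, and its log2 difference of -1.31 (SE 0.063) was the largest fall named by rule (edgeR adjusted p = 2.03e-19). Hspa1a, its near copy, had 3.53, 5.59 and 7.65 CPM in IRKO and 5.63, 11 and 14.2 CPM in IRflox libraries (-0.84, SE 0.075, edgeR adjusted p = 1.38e-11). The 2 genes share 49.9% of the 100-base stretches of the Hspa1b transcript, so the split of reads between them is uncertain. Their summed level was 8.38 to 18.0 CPM in IRKO and 17.1 to 41.0 CPM in IRflox libraries. In each treatment the sums did not overlap, with means of 9.2 CPM in IRKO and 18.2 CPM in IRflox in Ctrl, 15.9 in IRKO and 37.2 in IRflox in Ins, and 15.5 in IRKO and 35.2 in IRflox in IGF1.

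The promoters of 4 of the genes that were lower in every treatment are shown for the paired GAA and TTC units and for how alike the Hspa1 pair is. Each run is the 250 bases before the RefSeq gene start (GRCm38.p6), 5′ to 3′ on the gene's strand, with capitals at TTCNNGAA or GAANNTTC, both of which read the same on either strand. The windows are chr17:34959239-34959488 (minus) for Hspa1b, chr17:34972157-34972406 (minus) for Hspa1a, chr5:135887669-135887918 (plus) for Hspb1 and chr5:149636337-149636586 (minus) for Hsph1.
Hspa1b: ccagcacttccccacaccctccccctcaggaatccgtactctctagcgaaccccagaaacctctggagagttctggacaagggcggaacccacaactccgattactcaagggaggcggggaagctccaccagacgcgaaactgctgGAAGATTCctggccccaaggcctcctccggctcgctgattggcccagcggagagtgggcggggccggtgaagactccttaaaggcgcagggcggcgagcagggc
Hspa1a: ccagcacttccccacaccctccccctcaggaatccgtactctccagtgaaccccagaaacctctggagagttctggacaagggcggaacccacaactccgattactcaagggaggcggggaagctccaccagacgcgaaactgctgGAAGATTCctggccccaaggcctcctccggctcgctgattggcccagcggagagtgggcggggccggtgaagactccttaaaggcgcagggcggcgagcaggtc
Hspb1: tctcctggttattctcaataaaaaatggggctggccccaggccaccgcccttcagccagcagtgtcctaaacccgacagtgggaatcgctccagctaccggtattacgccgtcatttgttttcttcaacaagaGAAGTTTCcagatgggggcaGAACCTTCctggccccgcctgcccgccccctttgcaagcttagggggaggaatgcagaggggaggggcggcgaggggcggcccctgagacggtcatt
Hsph1: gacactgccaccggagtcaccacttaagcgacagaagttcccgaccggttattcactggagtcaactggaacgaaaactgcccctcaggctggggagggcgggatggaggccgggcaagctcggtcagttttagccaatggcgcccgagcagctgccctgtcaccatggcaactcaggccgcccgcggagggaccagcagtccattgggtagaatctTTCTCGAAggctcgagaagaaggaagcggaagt
The Hspa1b and Hspa1a windows had the same base at 247 of 250 positions. Of the 21 genes lower in the average, 16 matched the promoter table (not Hspa8, Hsp90aa1, Hsp90ab1, Hspa9 and Dnajc5) and 8 of these held either motif, as did 5 of the 39 matched genes that were not lower (12.8%) and 14.5% of 27025 genes with a promoter. The nearly identical Hspa1b and Hspa1a windows were counted singly among the 8. So were Hspd1 and Hspe1, each with 3 matches, and whether their windows overlap was not examined. A match describes letters only and is no sign of binding, and no match says only that these letters are not in the window.

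Abundant chaperone genes of the cytosol were among those that fell. Hspa8, the constitutive Hsp70, averaged 1670 CPM in IRKO and 2040 CPM in IRflox libraries (log2 -0.30, SE 0.023). Hsp90aa1, an Hsp90 gene, averaged 653 CPM in IRKO and 763 CPM in IRflox libraries (-0.22, SE 0.022). The nucleotide exchange factor gene Hsph1 averaged 128 CPM in IRKO and 162 CPM in IRflox libraries (-0.33, SE 0.025). All of these held in every treatment, as did the small heat shock protein gene Hspb1, at 4.28 CPM in IRKO and 6.86 CPM in IRflox libraries (-0.68, SE 0.1). The J-domain genes Dnajb1 (-0.28, SE 0.033) and Dnaja1 (-0.24, SE 0.024) fell in every treatment as well. The mitochondrial chaperone genes Hspd1 (-0.16), Hspe1 (-0.14) and Hspa9 (-0.13) were lower in the average. Several of these transcripts share 100-base stretches with other genes, so their levels are uncertain too. The shares were 47.5% for Hsp90aa1, 42.7% for Hspb1, 31.6% for Hspa8, 26.9% for Hspd1 and 14.8% for Dnaja1. Among chaperone genes of the endoplasmic reticulum, Dnajc1 (-0.22) and Dnajb9 (-0.09) were lower, while others were not called, such as Hspa5 at -0.02 (SE 0.021), Hsp90b1 at 0.01 (SE 0.023), Hspa13 at -0.01, Dnajc3 at 0.03 and Dnajb11 at 0.03. Whether members differ by compartment was not tested, and members other than Hspa1a and Hspa1b were named after their values were seen.

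**Figure D3:**
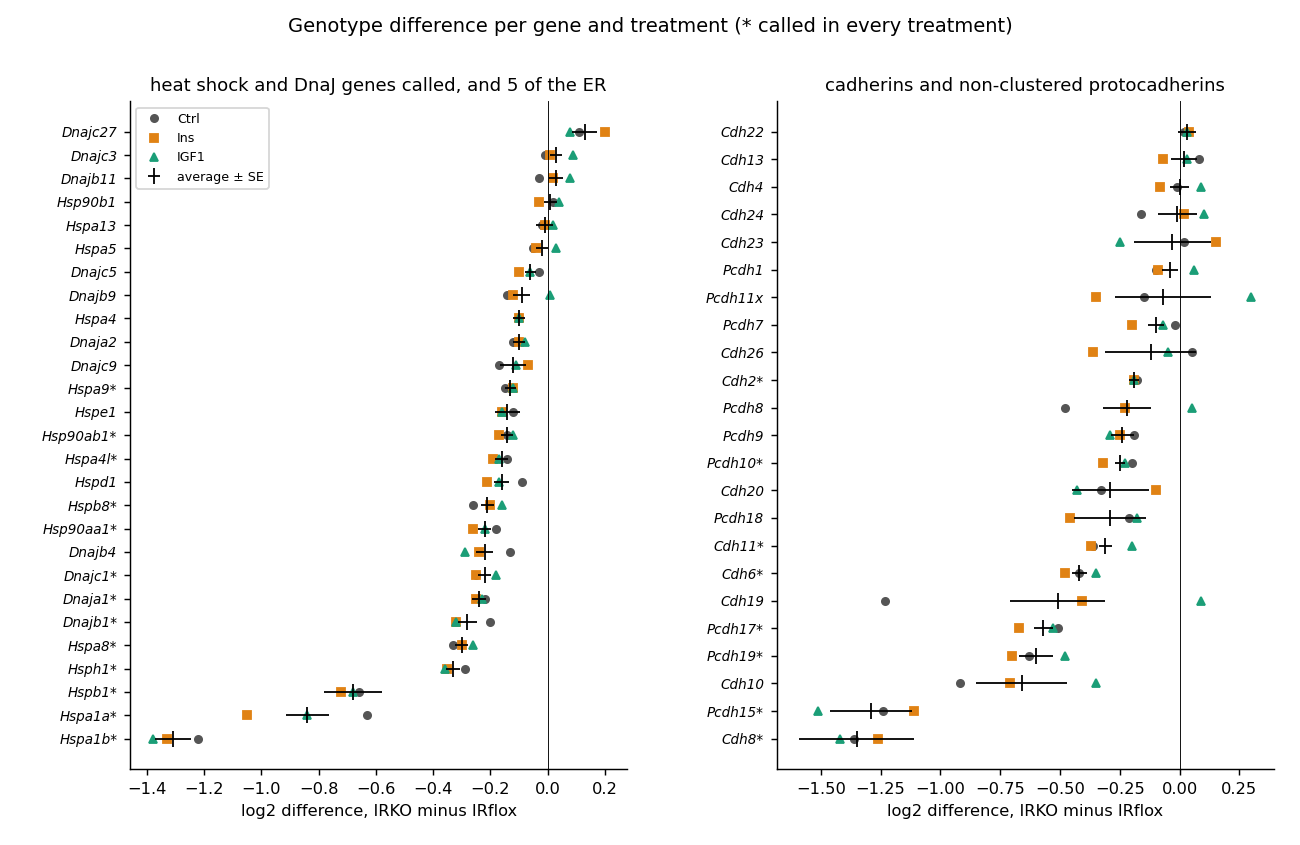
Log2 difference, IRKO minus IRflox, in Ctrl, Ins and IGF1 (symbols) and the average with its SE (black), for the heat shock and DnaJ genes called in the average plus 5 endoplasmic reticulum chaperones (left) and for 23 cadherins and non-clustered protocadherins (right). Of the called heat shock genes only Dnajc27 has its average right of 0, Hspa1b is at -1.31 on average, and the averages of the 12 called cadherin genes lie left of 0.

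Adhesion and guidance genes were also called lower more often than higher, in groups formed by symbol after their values were seen. Calls also varied with gene span, as described further on, with 32.7% of genes over 300 kb lower and 7.43% higher. Whether these groups differ from other genes of like span was not tested. Cadherins and non-clustered protocadherins, which hold cells together through calcium-dependent contacts, were lower in 12 of 23 cases (52.2%) and higher in 0, against 13.0% lower and 12.8% higher over all tested genes, and 8 of them were lower in every treatment, against 1.56% of all genes. Pcdh17 averaged 18.7 CPM in IRKO and 27.7 CPM in IRflox libraries (-0.57, SE 0.039). Cdh6 averaged 35.6 CPM in IRKO and 47.5 CPM in IRflox libraries (-0.42, SE 0.031), and the neural cadherin gene Cdh2 312 CPM in IRKO and 355 CPM in IRflox libraries (-0.19, SE 0.02). Axon guidance genes, ligands and receptors that steer growing processes, were lower in 23 (37.7%) and higher in 10 (16.4%) of 61 cases, both above the shares over all genes. The ligand gene Slit2 averaged 209 CPM in IRKO and 269 CPM in IRflox libraries (-0.37, SE 0.025), and its receptor gene Robo2 61.4 CPM in IRKO and 79.5 CPM in IRflox libraries (-0.37, SE 0.033). The netrin receptor genes Unc5b (-0.40, SE 0.036) and Unc5c (-0.58, SE 0.052) fell too, while the semaphorin genes Sema4a (0.35, SE 0.045) and Sema4d (0.21, SE 0.034) and Ntng2 (0.22, SE 0.024) rose in every treatment. Matrix genes were lower in 14 (42.4%) and higher in 7 (21.2%) of 33 cases, also both above those shares. Adamts1 (-0.32, SE 0.024), a matrix protease gene, Vcan (-0.37, SE 0.030), the versican gene, and Col8a1 (-0.29, SE 0.025) fell, and Col6a1 rose (0.39, SE 0.030), all in every treatment. The Id genes, inhibitors of bHLH factors induced by BMP, were lower in 3 of 4 cases, Id1, Id3 and Id4 at -0.24, -0.27 and -0.30, with Id2 higher at 0.16. Of 5 tested CCN genes, secreted matrix-associated signals, Ccn1, Ccn2 and Ccn3 fell in every treatment (-0.23, -0.41 and -0.46) and Ccn4 and Ccn5 were higher (0.29 and 0.09).

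Long genes were called lower in IRKO more often than short ones. Of 471 tested genes spanning over 300 kb, 7.43% were higher and 32.7% lower, against 10.6% higher and 9.13% lower of 4402 genes under 10 kb. In every treatment 2 genes over 300 kb were higher and 28 lower, while under 10 kb it was 47 and 57. The median span was 24.7 kb for the 216 genes higher in every treatment and 42.2 kb for the 243 lower, with 22.2 kb over all tested genes. The mean log2 CPM of genes over 300 kb was 3.60 to 3.69 in IRKO and 3.72 to 3.80 in IRflox libraries in Ctrl. In Ins it was 3.55 to 3.62 in IRKO and 3.71 to 3.77 in IRflox libraries, and in IGF1 3.57 to 3.60 in IRKO and 3.65 to 3.71 in IRflox libraries. The genotypes did not overlap in any treatment. For genes under 10 kb the genotypes overlapped in Ctrl (3.22 to 3.26 in IRKO and in IRflox libraries) and in IGF1 (3.29 to 3.33 in IRKO and 3.27 to 3.31 in IRflox libraries), and in Ins they were higher in IRKO (3.31 to 3.34) than in IRflox libraries (3.24 to 3.30). With a mean log2 CPM of at least 3, 36.8% of 288 genes over 300 kb were lower and 10.8% higher. Aff2 (507744 bases), Xkr4 (465598 bases) and Robo2 (519987 bases) belong to these long genes. The median share of reads outside genes in Ctrl was 18.2% in IRKO (16.9 to 22.5%) and 18.2% in IRflox libraries (16.6 to 23.2%). It was 19.5% in IRKO and 15.8% in IRflox libraries in Ins, and 19.0% in IRKO and 16.5% in IRflox libraries in IGF1. Whether this share bears on the calls of long genes was not tested.

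**Figure D4:**
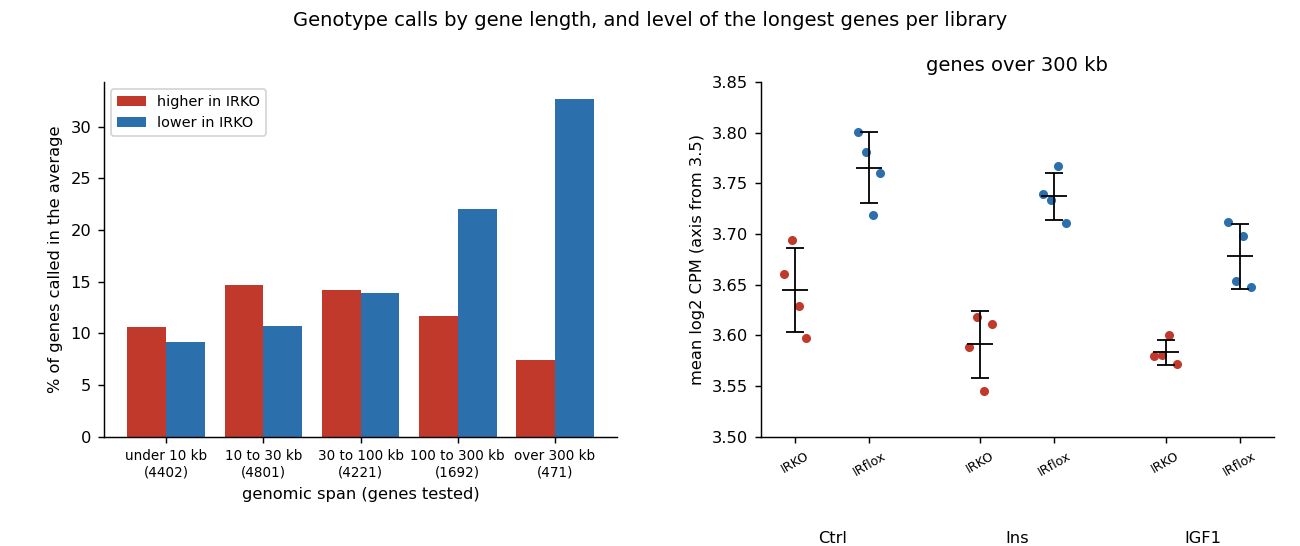
Left, share of tested genes called higher (red) and lower (blue) in IRKO in the average, by the genomic span of the gene, with the number tested in parentheses. Right, mean log2 CPM of the genes over 300 kb in every library (axis starting above 0), IRKO left of IRflox, with mean and SD of 4; the genotypes are apart in each treatment.

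Markers of some other cell types in these cultures moved with genotype. Microglia and macrophage markers were higher in IRKO in 18 of 22 cases (81.8%, against 12.8% of all tested genes) and lower in 0, 8 of them in every treatment, with a median of 0.20. Their summed level was 5396 to 5871 CPM in IRKO and 4510 to 4900 CPM in IRflox libraries in Ctrl. It was 4762 to 5211 CPM in IRKO and 4193 to 4594 CPM in IRflox libraries in Ins, and 4903 to 5066 CPM in IRKO and 4405 to 4675 CPM in IRflox libraries in IGF1. No treatment showed overlap between genotypes. Csf1r, the receptor for a survival factor of microglia with 15.1% of its exon length shared with Hmgxb3, averaged 288 CPM in IRKO and 244 CPM in IRflox libraries (0.24, SE 0.021, edgeR adjusted p = 1.64e-11). The integrin gene Itgam was higher by 0.29 (SE 0.023), with 68.7% of its exon length shared with Gm49368, the lysosomal membrane gene Laptm5 by 0.22 (SE 0.025) and the protease gene Ctss by 0.21 (SE 0.025). Siglech, another microglia marker, was near 0 (12 counts over all libraries). In bulk RNA more cells of a type and more RNA per cell cannot be told apart. Of 34 lysosome genes 9 were higher (26.5%) and 2 lower (5.88%), and 3 of the 9, Ctss and Cd68 among them, are also on the microglia list. Ctsz (0.18, SE 0.025) and Gusb (0.18, SE 0.025) held in every treatment.

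**Figure D5:**
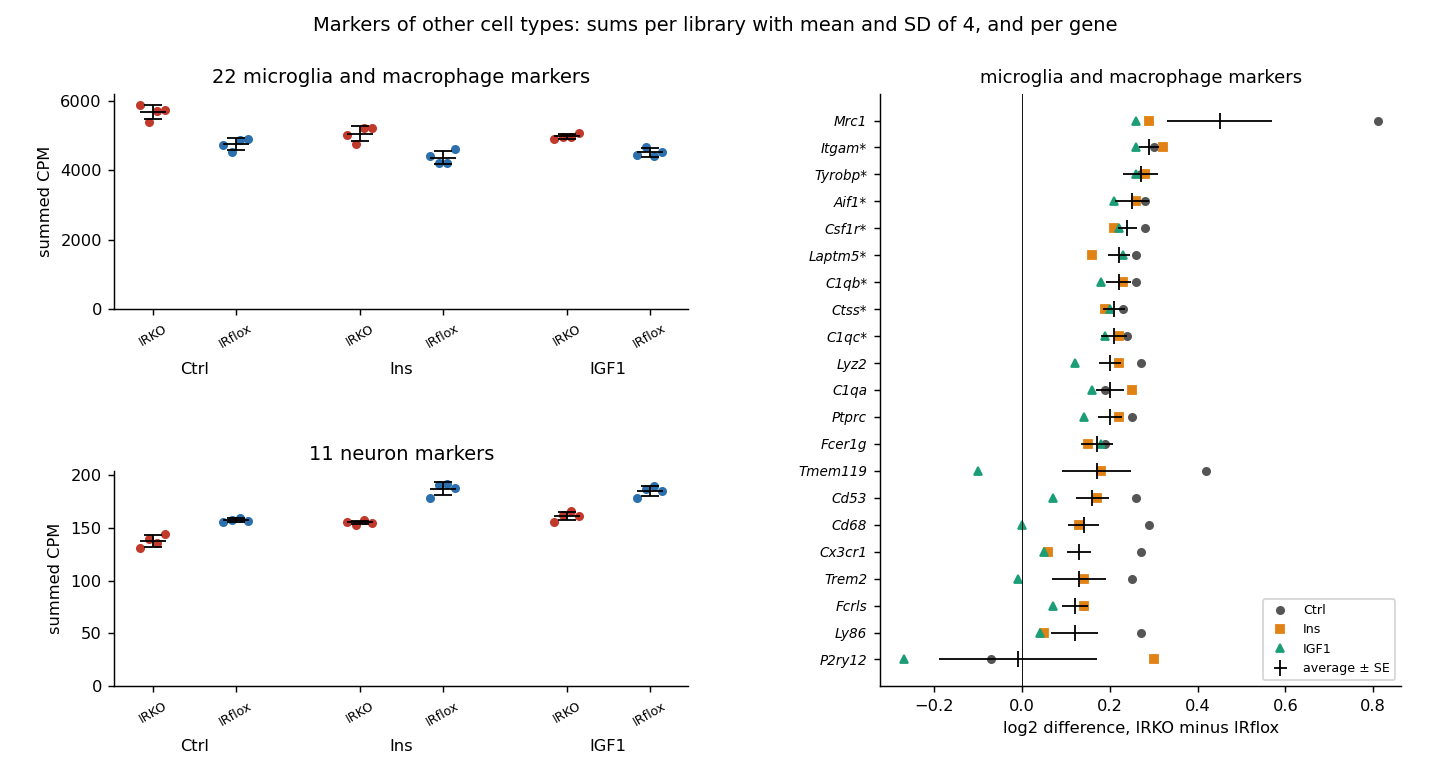
Summed CPM of 22 tested microglia and macrophage markers and of 11 tested neuron markers in every library (left; IRKO red, IRflox blue, with mean and SD of 4), and the log2 difference of 21 of the microglia markers, IRKO minus IRflox, by treatment with the average and its SE (right). IRKO libraries are higher for the microglia sum and lower for the neuron sum in each treatment.

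Other markers gave a mixed picture, with shares to be read against 12.8% higher and 13.0% lower over all tested genes. Neuron markers were lower in 4 of 11 cases (36.4%, against 13.0% of all tested genes) and higher in 0, Map2 (-0.34, SE 0.034) and Stmn2 (-0.19, SE 0.029) in every treatment, and Gad1 (-0.22) and Gad2 (-0.73) in the average. Gad2 averaged 0.315 CPM in IRKO and 0.535 CPM in IRflox libraries, and its call was lost in 16 of 24 fits that left out 1 library (edgeR adjusted p up to 0.0915). The summed neuron marker level was 131 to 144 CPM in IRKO and 155 to 159 CPM in IRflox libraries in Ctrl. It was 153 to 157 CPM in IRKO and 178 to 191 CPM in IRflox libraries in Ins, and 156 to 165 CPM in IRKO and 178 to 189 CPM in IRflox libraries in IGF1, without overlap. Map2 and Stmn2 made up most of these sums, at 47.7 and 58.3 of 131 CPM in IRKO Ctrl replicate 1. Among members not called, Tubb3 (0.18), Elavl4 (0.20) and Elavl3 (0.09) lay above 0. Nefm (-0.47), Slc17a7 (-0.50), Syt1 (-0.23) and Dlx2 (-0.20) lay below it. The mature neuron markers Rbfox3 and Snap25 were near 0, with 68 and 38 counts over all libraries. Fibroblast, meningeal and mural markers were lower in 6 (40%) and higher in 2 (13.3%, near the share over all genes) of 15 cases. The collagen-binding proteoglycan gene Lum averaged 0.976 CPM in IRKO and 3.29 CPM in IRflox libraries (-1.77, SE 0.14), which held in every treatment, as did the transcription factor gene Foxc1 with 12.8 CPM in IRKO and 16.7 CPM in IRflox libraries (-0.38, SE 0.05). The proteoglycan gene Dcn was lower in the average, at 1.37 CPM in IRKO and 2.39 CPM in IRflox libraries (-0.80, SE 0.15). The summed fibroblast level overlapped between genotypes in Ctrl and IGF1, but not in Ins, at 508 to 534 CPM in IRKO and 537 to 585 CPM in IRflox libraries. Oligodendrocyte lineage markers were higher in 4 of 9 cases (44.4%), none in every treatment, and lower in 0, with Olig1 at 0.17 (SE 0.028). The call of Mbp (0.22) was lost in 8 of 24 fits that left out 1 library (edgeR adjusted p up to 0.0884). The summed oligodendrocyte level was apart in each treatment, at 331.9 to 355.3 CPM in IRKO and 306.5 to 331.4 CPM in IRflox libraries in Ctrl, 434 to 441 CPM in IRKO and 377 to 418 CPM in IRflox libraries in Ins, and 461 to 493 CPM in IRKO and 420 to 448 CPM in IRflox libraries in IGF1. Endothelial markers were lower in 1 of 5 cases (20%), Flt1 at -0.35, but 0.41 in the microglia covariate fit described next. Ependymal and choroid plexus markers were higher in 1 of 8 cases (12.5%, near the share over all genes). That gene, Aqp1, differed by 1.12 (SE 0.20), at 1.31 CPM in IRKO and 0.606 CPM in IRflox libraries. None of 5 sex-linked genes was called, with Xist at -0.04 (SE 0.034). The part that culture makeup has in the genotype differences of other genes was not tested apart from a fit with the microglia level as a covariate. That level correlated with genotype within treatments at 0.91 over 24 libraries, and the fit raised the error of the genotype difference 3.13 times.

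In that covariate fit Insr differed by -0.60 (edgeR adjusted p = 0.00106) and Hspa1b by -1.16 (edgeR adjusted p = 0.000622), and 135 genes were higher and 79 lower in the average. Of the 216 genes higher in every treatment 210 kept their sign and 41 their call in the average, and of the 243 lower genes 243 kept their sign and 61 their call. The covariate fit left 6 of the 21 heat shock genes called lower. Chil1 (0.41), Per3 (0.69), Rspo3 (-0.98), Diras2 (-0.73) and Serpinb1a (-0.82) were still called, and Rlbp1 (0.50, adjusted p = 0.443), Aff2 (-0.66, 0.235), Hspa1a (-0.63, 0.174) and Xkr4 (-0.25, 0.751) were not in edgeR's test. All 15 cholesterol genes lost their call, and the median of that list was 0.01. Over all tested genes, calls in the average fell from 2003 higher and 2031 lower to 135 and 79. The lysosome, autophagy and interferon lists also lost every call. With the error raised 3.13 times, lost calls do not set 1 list apart from another, and the part of microglia in them was not tested.

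Immune and astrocyte genes moved both ways within each list, with shares to be read against 12.8% higher and 13.0% lower over all tested genes. Cytokine, chemokine and NF-kB genes were called in 20 of 27 cases, 12 higher (44.4%) and 8 lower (29.6%). The microglia marker sum was also higher in IRKO, and with it as a covariate, at 3.13 times the error, 1 of the 27 was called (lower). In that fit Tnf was at 0.07, Il1b at 0.03, Cxcl5 at -0.34 and Cxcl1 at -0.36, and the part of microglia in these differences cannot be told from it. Tnf averaged 320 CPM in IRKO and 268 CPM in IRflox libraries (0.26, SE 0.024) and was higher in every treatment, as were Il1b (0.28, SE 0.036) and the acute phase gene Saa3 (0.33, SE 0.041). Cxcl2, a chemokine gene, was higher by 0.25 (SE 0.030), whereas Cxcl5 (-0.34, SE 0.038) was lower in every treatment. Interferon response genes were lower in 11 (25.6%) and higher in 2 (4.65%) of 43 cases, and 1, the GTPase gene Iigp1 (-0.30, SE 0.027), was lower in every treatment; Ifit2 was at -0.27 (SE 0.035), and Irf1 (0.16, SE 0.024) and Oas2 (0.30, SE 0.045) were the higher members. Sensors of viral and cytosolic nucleic acid were called in 8 of 20 cases, 4 each way (20%), with Tlr3 at -0.20 (SE 0.026), Tlr2 at -0.12 (SE 0.022), Ifi204 at -0.18 (SE 0.037) and Ifi203 at 0.25 (SE 0.054). Of 19 astrocyte markers 6 were higher (31.6%) and 4 lower (21.1%). Ndrg2 rose (0.26, SE 0.022) and the connexin gene Gja1 fell (-0.14, SE 0.021) in every treatment, Id3 was lower as given above, and the potassium channel gene Kcnj10 was higher by 0.21 (SE 0.031). The reactive astrocyte panel was called in 14 of 36 cases, 6 higher (16.7%), including Cd14 (0.27, SE 0.024), and 8 lower (22.2%), including Steap4 (-0.17, SE 0.022) and Emp1 (-0.33, SE 0.043). Among 22 oxidative stress genes 4 were higher (18.2%) and 8 lower (36.4%), the metallothionein genes Mt2 (-0.29, SE 0.040) and Mt1 (-0.24, SE 0.041), Prdx6 (-0.19, SE 0.027) and Gpx1 (-0.15, SE 0.028) being the lower ones of lowest p, and none in every treatment. Of 22 p53 targets 3 were higher (13.6%, near the share over all genes), Btg2 (0.22, SE 0.028) in every treatment and Ei24 (0.12, SE 0.025) in the average, and 5 lower (22.7%), with Gdf15 at -0.20 (SE 0.058). Clock genes, grouped after their values were seen, were higher in 5 (31.2%) and lower in 2 (12.5%) of 16 cases, Per3 and Per2 (0.25, SE 0.041) in every treatment. Of 36 collagen genes 7 were higher (19.4%) and 9 lower (25%).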

How the data were processed

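RNA of 24 libraries (2 genotypes, 3 treatments, 4 libraries per group) was read as unstranded 150 bp pairs after poly-A selection, per the labels' protocols. The deposited values are unnormalized gene-level read counts, as whole numbers, in a separate table for each library. Tools listed in the submitters' processing notes are edgeR, DESeq2, STAR (2.7.7a) and R (4.0.4), with build mm10 and no roles; which program counted reads, and on which annotation, is not given in the sources used here. The 3 lines of each file that name no gene stayed out of library sizes and tests. Gene counts exceeded reads overlapping genes by 4.55 to 4.93%, so some reads were counted more than once. Coordinates and exon sharing come from GENCODE M21, promoters from RefSeq (GRCm38.p6).

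Counts were tested with edgeR 4.0.16 in R 4.3.3: expression filter (minimum count 10, total 15), TMM, 1 mean per group, quasi-likelihood F tests of the mean of the 3 within-treatment differences, of each difference and of their equality (2 degrees of freedom), Benjamini-Hochberg over 15599 genes. The fit was tested on simulated data. CPM used TMM sizes, and log2 CPM a prior count of 2. Over the 36 replicate pairs chi-square per gene was 2.17 to 6.86. Each library counted as 1 sample, but this spread does not show that replicates came from separate cultures. The members and the 25 gene lists were chosen with earlier results of these data known, and lists are described by counts and medians, with no test of a list; they were receptors and substrates, PI3-kinase signalling, FOXO targets, autophagy, lysosome, cholesterol, fatty acid, glycolysis, interferon, cytokines, p53, cell cycle, matrix, nucleic acid sensing, oxidative stress, a reactive panel, 7 sets of cell type markers, sex-linked genes and liver transcripts. Another 7 families were grouped by symbol after values were seen. Named were Insr, Igf1r, Irs1 and Irs2, the 12 largest rises and falls held in every treatment with a mean log2 CPM not under 2 and genotypes apart in each treatment, up to 4 genes of lowest p per list, the 6 of lowest p for dependence on treatment and those called in opposite directions; others were chosen after their values were seen. Alternatives were DESeq2 1.42.0, limma-voom 3.58.1, other scaling and filters, an additive model, single-treatment fits, a replicate block, a microglia covariate, a stricter threshold and leaving out each library. Results of a few list members are not reported here.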

Additional observations from a re-analysis of the deposited data

Results flagged for a closer look

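In 6 of 180 groups of 4 libraries examined, 1 library stood far from the other 3 of its group by Dixon's criterion; chance gives about 1 in 20 groups, and 6 of 180 is 3.33%. Rlbp1 was at 1.98 CPM in IRflox Ctrl replicate 2, against 3.10 to 3.25 CPM in the others. In the same library Chil1 was at 271 CPM, against 295 to 298 CPM. Relt was at 5.79 CPM in IRflox Ctrl replicate 3, against 9.01 to 9.25 CPM, and Fgf1 at 29.8 CPM in IRflox Ctrl replicate 1, against 24.2 to 24.6 CPM. Per3 was at 40.7 CPM in IRKO Ins replicate 1, against 46.0 to 46.3 CPM, and Rspo3 at 5.51 CPM in IRKO Ctrl replicate 2, against 8.03 to 8.42 CPM. All 6 genes were called in the average in each of the 24 fits that left out 1 library.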

How the results depend on the processing

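The counts of 2003 higher and 2031 lower genes in the average, and of 216 and 243 in every treatment, moved by over 1.5 times under 2 alternatives. With the microglia marker level as a covariate they were 135 and 79 in the average and 5 and 0 in every treatment, 3 and 0 of which were among the original genes; the covariate is nearly collinear with genotype. At an adjusted p under 0.01 they were 1290 and 1330, and 100 and 127. Dependence on treatment was called for 33 genes with no filter on low counts. Leaving out 1 library gave 1782 to 1971 higher and 1951 to 2237 lower genes in the average, 169 to 217 and 194 to 262 in every treatment, 0 to 3 genes dependent on treatment (3 without IRKO Ctrl replicate 1) and -0.70 to -0.68 for Insr. Without the microglia marker genes, an alternative chosen after seeing the data, 184 genes were higher and 262 lower in every treatment.

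With a replicate block, 1992 genes were higher and 2022 lower, 224 and 239 in every treatment, and Insr was at -0.69. IRKO and IRflox libraries of the same treatment and replicate number showed no sign of pairing, as their deviations correlated at -0.064 to 0.05 over 12 pairs of libraries. Pairing across treatments by replicate number was not examined.

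Among 4118 values of 125 named genes under alternatives, 3975 kept direction and side of the threshold and 114 lost the call, 84 with the microglia covariate; 22 changed sign, and the cause was not tested. Of those genes Mitf and Flt1 alone were called to begin with. With the covariate, Slfn5 was at -0.05, Ltb -0.66, Mitf -0.14, Flt1 0.41, Egfl7 0.77, Eif2s3y -0.08 and Xist 0.20. By library size alone Ddx3y was at 0.00, by limma-voom Ttr at 0.00 and by the additive model Ttr at -0.48. Leaving out 1 library, Ltb ranged from -0.06 to 0.27, Gm23935 from -0.06 to 0.11, Ttr from 0.00 to 0.97, Ddx3y from -0.03 to 0.02 and Alb from -1.38 to 1.63. Igf1r, Gad2 and Mbp lost their calls with no filter on low counts. Depth limits genes under about 1 CPM, where folds rest on few counts.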

Other observations

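Liver transcripts were present in traces. Counts of the albumin gene Alb were 0 to 133 in IRKO and 0 to 153 in IRflox libraries, with 0 to 112 in IRKO Ctrl and 0 to 2 in IRflox Ctrl libraries. Its average difference did not pass (log2 1.20, SE 0.63, edgeR adjusted p = 0.168; 5.3e-08 with no filter on low counts, and log2 -1.38 without IRKO Ctrl replicate 4), although its mean level was 2.29 CPM in IRKO and 2.54 CPM in IRflox libraries. Of 6 tested liver transcripts 1 was higher, Trf (0.20, SE 0.036), the transferrin gene that glia also express. Gm20425 shares 77.3% of the 100-base stretches of the Trf transcript, so the level of Trf is uncertain. Sele, the endothelial selectin gene, was lower in every treatment (log2 -0.92, edgeR adjusted p = 2.64e-10), and the integrin gene Itgb4 was higher in every treatment at 0.69. Both overlapped between genotypes in at least 1 treatment and were chosen after their values were seen.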
